A study of Mus musculus with 8 samples.

Results

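The death receptor and caspase-8 pathway was followed through the chromatin accessibility of 9 genes: the receptors Fas and Tnfrsf10b, the ligands Fasl and Tnfsf10, the adaptors Fadd, Tradd and Ripk1, the initiator protease gene Casp8 and its inhibitor Cflar. ATAC-seq reads accessibility from the places where a transposase cuts and tags open DNA. A peak, which is a region where such cuts pile up, belonged to a gene when that gene was the nearest protein-coding gene in mm10 and lay within 50 kb. By this rule 49 of the 57199 peaks belonged to the 9 genes. They were spread unevenly, with 13 peaks at Fasl, 11 at Cflar, 6 each at Fas, Tnfsf10 and Casp8, 2 each at Tnfrsf10b, Fadd and Tradd, and 1 at Ripk1. The Ripk1 peak was as close to the neighbouring gene Serpinb6a, and 1 of the Tradd peaks was as close to Fbxl8, so neither can be given to a single gene.

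The cells were regulatory T (Treg) cells, the Foxp3-expressing CD4+ cells that restrain immune responses, sorted from spleens of mouse mixed bone marrow chimeras. All libraries shared the same gate, which took cells positive for CD45.2, CD4 and a Foxp3-YFP reporter and negative for CD45.1, so that only 1 of the bone marrow sources in each chimera was sampled. In 4 libraries the sorted cells were wild type (WT), and in the other 4 they came from Foxp3Cre Flcn fl/fl marrow (Flcn KO), where Cre recombinase under Foxp3 control removes Flcn in Foxp3-expressing cells. Flcn encodes folliculin, a lysosomal protein that acts in nutrient sensing and restrains the transcription factors TFEB and TFE3. The labels give no age of the mice, do not say whether the WT marrow also carried Foxp3Cre, and call the 4 samples of each group biological replicates.

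Death receptors are members of the TNF receptor family with a death domain on the inner side of the membrane. When Fas ligand (encoded by Fasl) binds Fas, or TRAIL (encoded by Tnfsf10) binds its receptor (encoded by Tnfrsf10b), the adaptor FADD is recruited through its death domain and brings in caspase-8, which then activates the executioner caspases. The caspase-like protein c-FLIP, encoded by Cflar, competes with caspase-8 for FADD. TRADD and RIPK1 serve the TNF receptor, where RIPK1 can lead to survival signalling, to caspase-8 activation or to necroptosis. In T cells, Fas signalling removes activated and self-reactive cells.

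RefSeq (GRCm38.p6) promoter windows, which run from 250 bases before to 50 bases after a start, were found for 7 of the 9 genes. Those of the ligands, of Fas and of the adaptor Fadd are shown because they contrast an accessible promoter peak (Fasl, Fas, Fadd) with a promoter that no peak overlapped (Tnfsf10). Each is printed 5′ to 3′ on the gene's own strand and ends at the base before the gene span. Capitals mark matches, on either strand, to CACGTG (the E-box bound by TFEB and TFE3), TGANTCA (AP-1), TTCNNNGAA (STAT), GGGCGG (GC box), CCGGAA (ETS) or TATAAA (core promoter box), or to the IRF motif.
Fas, chr19:34290409-34290646, + strand: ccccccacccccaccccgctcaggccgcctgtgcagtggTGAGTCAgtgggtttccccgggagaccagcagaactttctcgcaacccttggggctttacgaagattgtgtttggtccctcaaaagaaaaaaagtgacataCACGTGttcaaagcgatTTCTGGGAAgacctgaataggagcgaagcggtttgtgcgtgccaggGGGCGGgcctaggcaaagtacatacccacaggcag
Fasl, chr1:161788496-161788745, - strand: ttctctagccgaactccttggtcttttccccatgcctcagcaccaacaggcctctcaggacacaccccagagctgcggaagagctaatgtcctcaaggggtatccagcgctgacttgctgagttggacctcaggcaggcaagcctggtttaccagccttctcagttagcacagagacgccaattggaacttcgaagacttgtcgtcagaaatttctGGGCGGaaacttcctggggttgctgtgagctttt
Tnfsf10, chr3:27316827-27317076, + strand: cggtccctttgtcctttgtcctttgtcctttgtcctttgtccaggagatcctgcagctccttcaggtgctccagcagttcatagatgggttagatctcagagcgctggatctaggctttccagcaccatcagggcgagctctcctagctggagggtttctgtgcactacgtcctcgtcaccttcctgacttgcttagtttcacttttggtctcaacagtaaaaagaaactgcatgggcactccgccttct
Fadd, chr7:144582442-144582691, - strand: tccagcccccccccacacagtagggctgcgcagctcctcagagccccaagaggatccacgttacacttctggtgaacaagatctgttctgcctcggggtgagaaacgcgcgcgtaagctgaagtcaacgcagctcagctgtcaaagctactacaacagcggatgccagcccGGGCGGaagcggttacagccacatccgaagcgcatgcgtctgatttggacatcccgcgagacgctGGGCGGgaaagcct

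Over the full windows, of which the 7 genes had 8, CACGTG was found in that of Fas alone, against 7.15% of all 32851 promoter windows. The match in Fas lay 110 to 105 bases before the start. The Fas window also held TGANTCA, found in 7.81% of all windows. GGGCGG was in 5 of the 8 member windows, those of Fas, Fasl and Fadd and both of Ripk1, against 35.7% of all windows. None of the motifs in capitals was in the printed Tnfsf10 sequence. Such matches describe letters and not bound sites.

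Library totals ranged from 2723344 to 5111728 counts. Even numbers made up 88.7% to 92.7% of the counts in each, as happens when the 2 ends of a read pair are counted separately, so fragments number fewer than counts. Of 4 peaks inside Flcn, the 2 tested were not called (log2 fold changes -0.28 and -0.57), and the 2 left out by the filter held 0 to 0.51 CPM in WT and 0.391 to 8.0 CPM in Flcn KO libraries. Whether any of them lies in the deleted stretch was not analysed here, so they do not check the genotype labels. The Treg gate was checked on 8 marker genes, of which 7 had a peak within 1 kb (Tnfrsf18 had none), and their summed accessibility was 938 to 1030 counts per 1000000 library counts (CPM) in WT and 939 to 1080 CPM in Flcn KO libraries. Marker lists of CD8 T, B, myeloid, NK and erythroid cells summed to between 16.0 and 44.0 CPM in every library, and Ms4a1, Csf1r, Lyz2 and Ncr1 were among the markers with no peak. The erythroid sum (3 of 3 markers with a peak) was 19.9 to 25.3 CPM in WT and 25.5 to 34.8 CPM in Flcn KO libraries, without overlap, and its part in the results was not tested. In bulk libraries, more open chromatin per cell and more cells with an open site cannot be told apart.

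Loss of Flcn left most of the pathway's peaks uncalled, and 1 peak, inside Tnfrsf10b, rose. Of the 49 peaks, 48 had enough counts to be tested with edgeR's quasi-likelihood test, and a peak was called at a Benjamini-Hochberg adjusted p below 0.05 over all 47859 tested peaks. One member peak was called higher in Flcn KO, where 1.35% of all tested peaks were called higher. No member peak was called lower, where 1.02% of all tested peaks were. At an unadjusted p below 0.05, 3 member peaks were higher and 0 lower, which is 6.25% of those tested and less than the 12.9% of all peaks. The lowest Flcn KO library was above the highest WT library at 3 member peaks (4.03% of all peaks), and the reverse held at 0 member peaks (3.56% of all peaks).

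The 48 log2 fold changes, Flcn KO minus WT throughout, ran from -0.43 to 0.70. They were above 0 at 31 peaks (1 of them, in Cflar, 0.00 after rounding) and below 0 at 17, with a median of 0.14, where 50.6% of all peaks were above 0 and the median of all peaks was 0.00. Their median size regardless of sign was 0.20, and that of all peaks was 0.22. Peaks of 1 gene share a locus and are not independent, so these counts describe the set only. The peak not tested lies within Casp8 and held 0 to 14 counts per library.

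**Figure D1:**
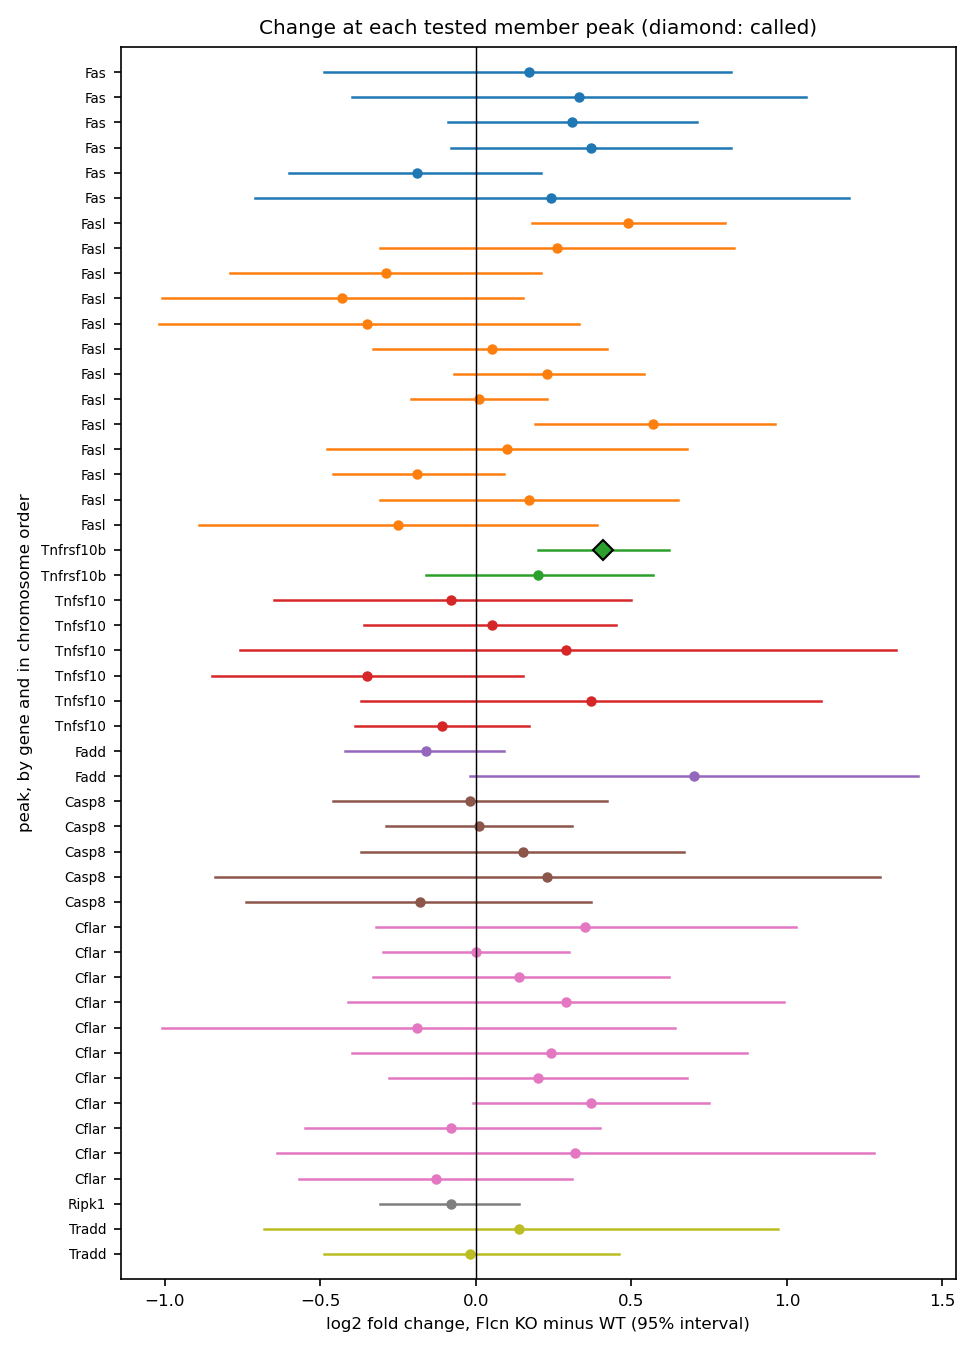
Log2 fold change (Flcn KO minus WT) of each tested member peak with its 95% interval, grouped by gene. The diamond at Tnfrsf10b, at 0.41, is the called peak, and round points mark the other 47, which lie between -0.43 and 0.70.

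Among the receptors, Tnfrsf10b carried the called peak. Tnfrsf10b (chr14:69767472-69784411) encodes the mouse death receptor for TRAIL. Its larger peak, chr14:69774270-69775296, lies inside the gene, 6798 bp from the nearer gene end, and whether it is exonic or intronic was not analysed here. It held 67.3, 68.7, 76.5 and 72.3 CPM in WT replicates 1 to 4 and 84.5, 97.3, 97.0 and 101 CPM in Flcn KO replicates 1 to 4. All 4 Flcn KO libraries were above all 4 WT libraries. WT averaged 71.2 ± 4.13 and Flcn KO 95.0 ± 7.31 CPM (SD, n = 4 each), a 1.33-fold rise (95% interval 1.15 to 1.54), or 0.41 on the log2 scale (SE 0.10, edgeR adjusted p = 0.0209). The call is near the threshold: it was lost when any of 6 single libraries was left out (WT 1, 2 or 4, Flcn KO 2, 3 or 4), with adjusted p up to 0.0846, while the log2 fold change stayed between 0.39 and 0.47.

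The other Tnfrsf10b peak, chr14:69780295-69780716, lies 3695 bp inside the nearer gene end. It held 19.5, 26.3, 25.5 and 41.1 CPM in WT and 32.8, 27.3, 32.6 and 36.6 CPM in Flcn KO libraries. Here the groups overlapped, since WT replicate 4 was the highest of the 8 libraries and WT replicate 1 the lowest. Its log2 fold change was 0.20 (SE 0.18, 95% interval -0.16 to 0.57, adjusted p = 0.718). That interval includes the 0.41 of the larger peak, so a difference between both sites was not resolved.

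Fas (chr19:34290647-34327775, + strand), the receptor for Fas ligand, had no called peak among 6. Its promoter peak, chr19:34290025-34290808, which covers the sequence printed above, held 21.6, 21.4, 19.4 and 18.2 CPM in WT and 26.0, 35.3, 15.9 and 22.9 CPM in Flcn KO libraries. WT libraries were close together (20.1 ± 1.64 CPM) and Flcn KO libraries spread widely around a mean of 25.0 ± 8.03 CPM, with replicate 2 the highest and replicate 3 below every WT library. The log2 fold change was 0.31 (SE 0.20, 95% interval -0.09 to 0.71, adjusted p = 0.550).

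The Fas peak with the lowest adjusted p, chr19:34299199-34299676, lies within the gene. It held 14.5, 12.0, 9.69 and 11.3 CPM in WT and 17.2, 13.4, 13.9 and 17.5 CPM in Flcn KO libraries. Only WT replicate 1 stood above the lowest Flcn KO libraries, yet the log2 fold change of 0.37 (SE 0.22, adjusted p = 0.512) was not called. Over the 6 Fas peaks, log2 fold changes ran from -0.19 to 0.37, with 5 above 0 and 1 below.

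**Figure D2:**
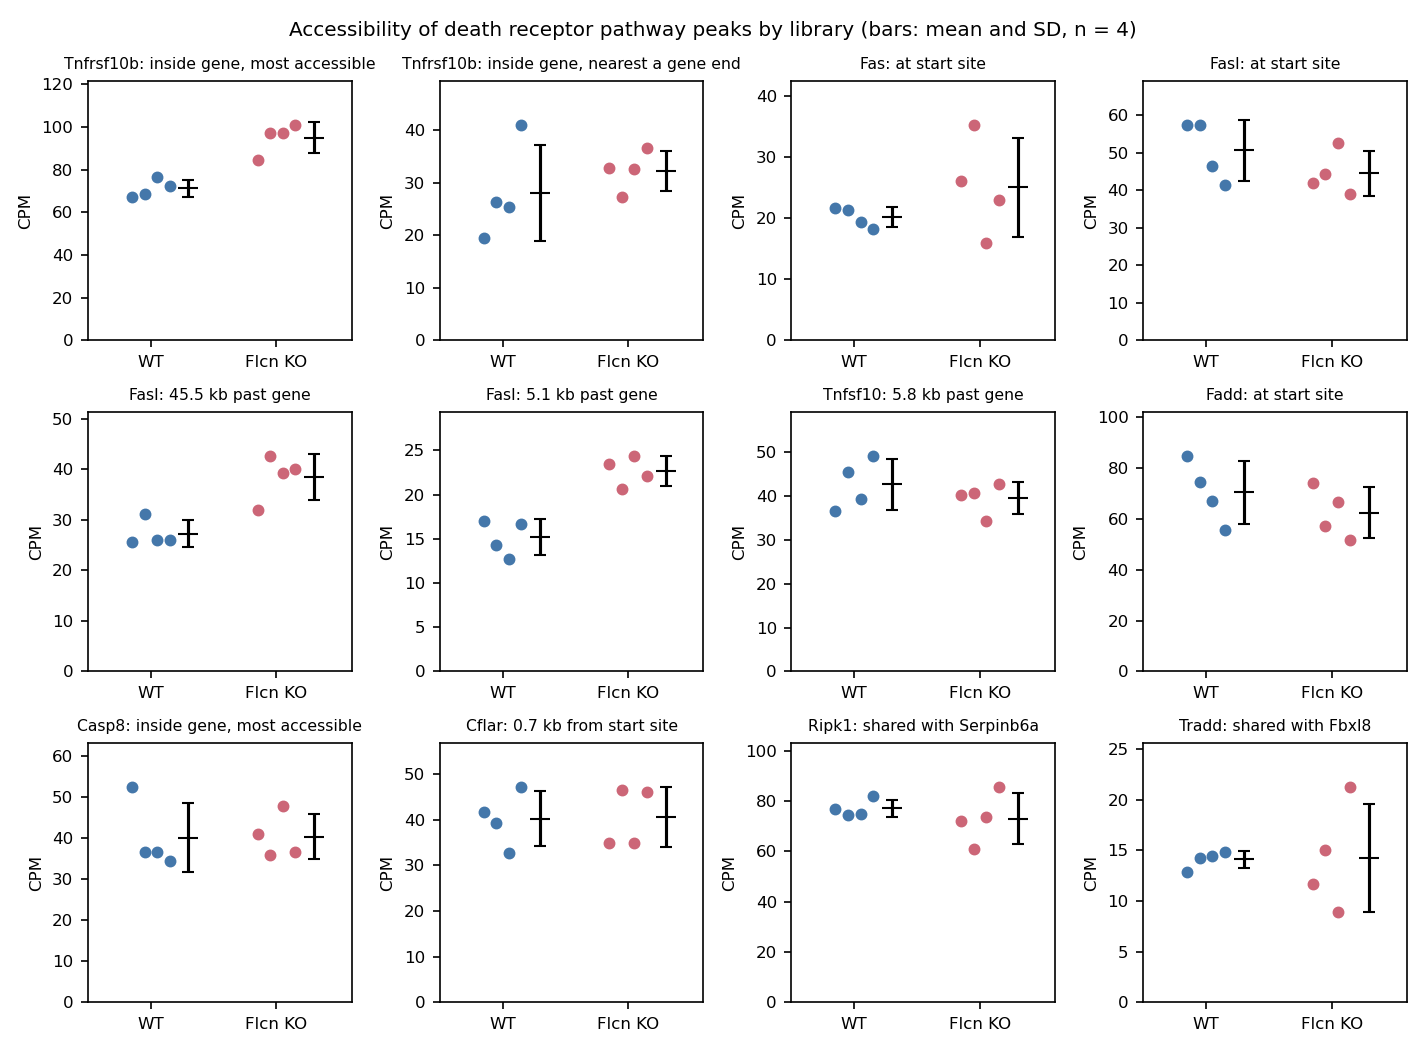
Accessibility (CPM) of selected member peaks in each library, with 4 points per group and a black bar for the mean and SD. In the called Tnfrsf10b panel the Flcn KO points, from 84.5 to 101 CPM, all lie above the WT points, which reach 76.5 CPM.

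Fasl (chr1:161780691-161788495, - strand) encodes the ligand of Fas and had the most peaks of the 9 genes, but only 1 overlapped the gene itself. That promoter peak, chr1:161788179-161788719, held 57.3, 57.5, 46.4 and 41.3 CPM in WT and 42.0, 44.4, 52.7 and 38.9 CPM in Flcn KO libraries. Both groups overlapped, and the means were 50.6 ± 8.10 and 44.5 ± 5.92 CPM. The log2 fold change was -0.19 (SE 0.14, 95% interval -0.46 to 0.09, adjusted p = 0.631). The most accessible Fasl peak, chr1:161766502-161767477, lies 13.2 kb beyond the 3′ end of the gene and overlaps the long noncoding RNA gene Gm31869. It held 111, 102, 100 and 87.1 CPM in WT and 92.5, 103, 119 and 87.6 CPM in Flcn KO libraries, and the groups covered nearly the same range. Its log2 fold change was 0.01 (SE 0.11, 95% interval -0.21 to 0.23, adjusted p = 0.983).

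Beyond the 3′ end of Fasl, 2 peaks were higher in every Flcn KO library than in every WT library without passing the adjusted threshold. The peak at chr1:161734300-161735210, 45.5 kb beyond the gene, held 25.7, 31.2, 26.0 and 26.1 CPM in WT and 31.9, 42.7, 39.3 and 40.0 CPM in Flcn KO libraries. Its means were 27.3 ± 2.65 and 38.5 ± 4.65 CPM, a ratio of 1.40, and its log2 fold change was 0.49 (SE 0.15, edgeR unadjusted p = 0.00264, adjusted p = 0.0814). Flcn KO replicate 1 was the lowest of its group, and without it the peak was called (adjusted p = 0.0264). The peak at chr1:161775142-161775602, 5.09 kb beyond the gene and singled out after its values were seen, held 17.0, 14.3, 12.7 and 16.7 CPM in WT and 23.5, 20.6, 24.4 and 22.1 CPM in Flcn KO libraries. It had a log2 change of 0.57 (SE 0.19, edgeR unadjusted p = 0.00444, adjusted p = 0.110). The remaining 9 Fasl peaks, like those described, were not called, and the 13 together ran from -0.43 to 0.57 with 8 above 0 and 5 below.

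Farther out on the same side, with Fasl still the nearest protein-coding gene but outside the 50 kb limit, 2 peaks were called higher. Fasl had 18 peaks within 100 kb against 13 within 50 kb, and 1.35% of all tested peaks were called higher. The peak at chr1:161704498-161705306, 75.4 kb from Fasl, held 13.3, 13.4, 21.9 and 17.2 CPM in WT and 32.1, 33.1, 35.1 and 29.3 CPM in Flcn KO libraries, a log2 change of 0.99 (SE 0.18, adjusted p = 0.000842). The peak at chr1:161712891-161713358, 67.3 kb away, held 32.4, 31.7, 33.1 and 36.4 CPM in WT and 46.9, 45.2, 63.6 and 53.3 CPM in Flcn KO libraries, a log2 change of 0.64 (SE 0.14, adjusted p = 0.00485). At both, every Flcn KO library was above every WT library. Position alone ties them to Fasl. The peaks 86.9 kb away (log2 change 0.96, SE 0.39, edgeR adjusted p = 0.241) and 73.3 kb away (0.30, SE 0.23, edgeR adjusted p = 0.642) were not called. A peak 92.8 kb away was not tested. Fasl is also expressed by NK and CD8 T cells, whose marker sums were 22.4 to 29.0 (NK) and 18.1 to 29.0 CPM (CD8 T) in WT and 26.2 to 42.7 and 16.0 to 35.8 CPM in Flcn KO libraries. Of the 3 NK markers, Klrb1c had 1 peak, Klre1 had 3 and Ncr1 had none. The NK sum averaged 33.3 CPM after loss of Flcn, against a WT mean of 25.3 CPM, with overlapping ranges. Among its 4 peaks, 0 were called higher and 1 was called lower. The part of NK and CD8 T cells in the Fasl values was not tested.

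**Figure D3:**
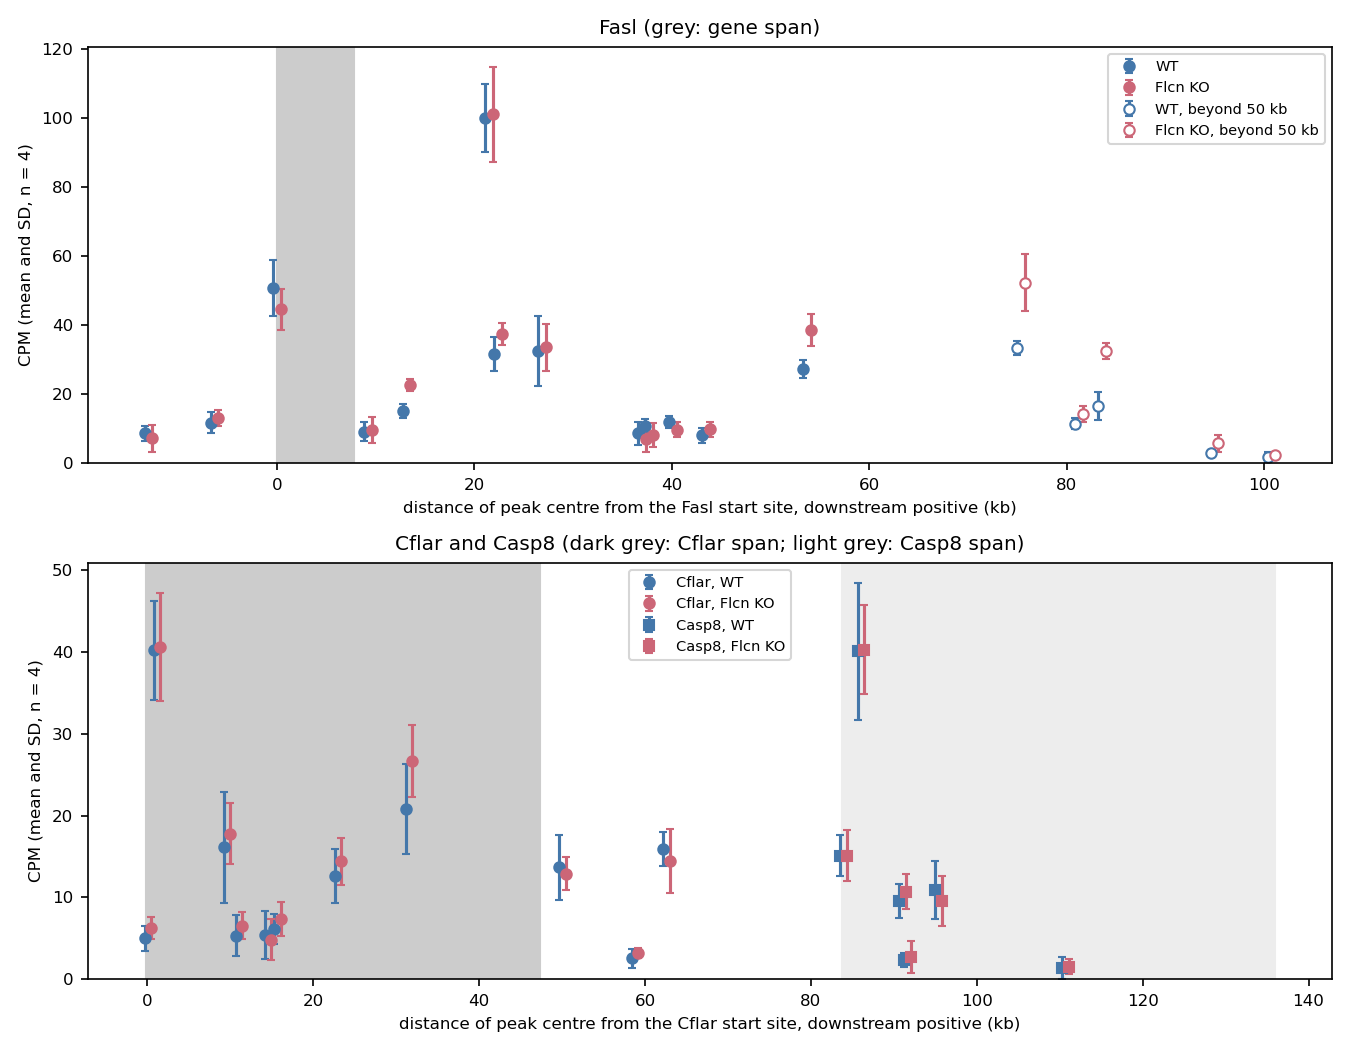
Accessibility (mean CPM with SD bars, n = 4, WT blue, Flcn KO red) of each peak against the distance of its centre from the start (kb), for Fasl above and for Cflar and Casp8 below. Open points are Fasl peaks beyond 50 kb, 2 of which were called higher, while the highest Fasl peak, 13.2 kb past the gene, averaged 99.9 CPM (WT) and 101 CPM (Flcn KO).

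Tnfsf10 (chr3:27317077-27339665, + strand), which encodes the ligand TRAIL, had 6 peaks and none called. No peak overlapped the promoter window printed above. The tested peak nearest its start, chr3:27322631-27322897, lies 5554 bp inside the gene and was sparse, with 2.49, 1.34, 1.53 and 3.44 CPM in WT and 3.52, 1.07, 2.49 and 3.81 CPM in Flcn KO libraries. At that depth the interval of its log2 fold change of 0.29 was wide, from -0.76 to 1.35 (adjusted p = 0.885). The most accessible peak, chr3:27345515-27345908, lies 5.85 kb beyond the 3′ end and held 36.5, 45.5, 39.3 and 49.2 CPM in WT and 40.3, 40.6, 34.3 and 42.7 CPM in Flcn KO libraries. Groups overlapped, and its log2 fold change was -0.11 (SE 0.14, 95% interval -0.39 to 0.17, adjusted p = 0.817). The lowest adjusted p at this gene, 0.605, belonged to chr3:27330705-27331201 within the gene, with 14.9, 19.0, 10.5 and 11.6 CPM in WT and 11.9, 9.62, 14.4 and 7.24 CPM in Flcn KO libraries, again overlapping, and a log2 change of -0.35 (SE 0.25).

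Fadd (chr7:144578323-144582441, - strand) encodes the adaptor that links Fas and the TRAIL receptor to caspase-8. Its promoter peak, chr7:144581543-144582769, held 84.9, 74.5, 67.1 and 55.6 CPM in WT and 74.3, 57.4, 66.6 and 51.8 CPM in Flcn KO libraries. The groups overlapped over most of their range, and the log2 fold change was -0.16 (SE 0.13, 95% interval -0.42 to 0.09, adjusted p = 0.658). A small peak 1266 bp upstream, chr7:144583707-144583963, had the highest log2 fold change of the 48 member peaks, 0.70 (SE 0.36, 95% interval -0.02 to 1.42, adjusted p = 0.412). It held 2.91, 3.12, 3.57 and 7.87 CPM in WT and 6.26, 4.81, 8.95 and 8.38 CPM in Flcn KO libraries, so WT replicate 4 was within the Flcn KO range and the other WT libraries were below it.

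Ripk1 (chr13:34002225-34035170, + strand) encodes a kinase with a death domain, and its single peak, chr13:34001970-34003051, covers its start and is shared with Serpinb6a. This peak held 76.8, 74.5, 75.0 and 81.9 CPM in WT and 72.0, 60.9, 73.6 and 85.7 CPM in Flcn KO libraries. Flcn KO replicate 2 was the lowest and replicate 4 the highest of all 8, and the log2 fold change was -0.08 (SE 0.11, 95% interval -0.31 to 0.14, adjusted p = 0.836). Tradd (chr8:105258575-105264594), the adaptor of TNF receptor 1, had a peak at 1 gene end, chr8:105264462-105264794, shared with Fbxl8, and another within the gene, chr8:105259730-105259986. The shared peak held 12.9, 14.3, 14.5 and 14.8 CPM in WT and 11.7, 15.0, 8.95 and 21.3 CPM in Flcn KO libraries, a spread of 14.1 ± 0.850 against 14.2 ± 5.33 CPM. Its log2 fold change was -0.02 (SE 0.23, 95% interval -0.49 to 0.46, adjusted p = 0.987). At the inner peak, WT libraries held 4.36, 3.57, 2.55 and 4.92 CPM and Flcn KO libraries 3.52, 5.88, 1.99 and 6.10 CPM, which overlapped, with a log2 change of 0.14 (SE 0.41, adjusted p = 0.933).

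Casp8 and Cflar lie next to each other on chromosome 1, and none of their 16 tested peaks was called. Casp8 (chr1:58795233-58847503, + strand) encodes caspase-8. Its most accessible peak, chr1:58797295-58797756, lies within the gene upstream of the listed start and held 52.5, 36.6, 36.7 and 34.4 CPM in WT and 41.1, 35.8, 47.7 and 36.6 CPM in Flcn KO libraries. WT replicate 1 was the highest library, and the means of 40.1 ± 8.37 and 40.3 ± 5.48 CPM gave a log2 change of 0.01 (SE 0.15, 95% interval -0.29 to 0.31, adjusted p = 0.989). At the listed start, chr1:58802374-58802734 held 10.8, 9.37, 6.63 and 11.3 CPM in WT and 10.2, 8.55, 10.4 and 13.7 CPM in Flcn KO libraries, which overlapped (log2 fold change 0.15, SE 0.26, adjusted p = 0.880). The Casp8 peak with the lowest adjusted p, chr1:58806672-58807020, held 15.4, 12.0, 8.67 and 7.38 CPM in WT and 10.9, 5.88, 12.9 and 8.38 CPM in Flcn KO libraries. These overlapped too, at a log2 change of -0.18 (SE 0.27, adjusted p = 0.859).

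Cflar (chr1:58711311-58758884, + strand) encodes the caspase-8 inhibitor c-FLIP and had 8 of its 11 peaks within the gene. The peak over its start, chr1:58711434-58711666, was small, with 4.77, 3.57, 7.14 and 4.43 CPM in WT and 7.43, 7.21, 4.48 and 6.10 CPM in Flcn KO libraries (log2 fold change 0.35, SE 0.33, adjusted p = 0.739). Accessibility was highest 710 bp downstream of the listed start, at chr1:58712201-58713147, with 41.7, 39.3, 32.6 and 47.2 CPM in WT and 34.8, 46.5, 34.8 and 46.1 CPM in Flcn KO libraries. Both peaks overlapped between groups, and the log2 fold change of the second was 0.00 (SE 0.15, 95% interval -0.30 to 0.30, adjusted p = 1.0). The lowest adjusted p, 0.415, belonged to chr1:58742451-58743589, 31.0 kb from the start, which held 16.0, 28.6, 17.8 and 20.9 CPM in WT and 31.9, 22.4, 28.8 and 23.6 CPM in Flcn KO libraries. WT replicate 2 stood among the Flcn KO values there, and the log2 fold change was 0.37 (SE 0.19, 95% interval -0.01 to 0.75). Over the 11 peaks, log2 fold changes ran from -0.19 to 0.37, with 7 above 0, 3 below and 1 at 0.00 to the 2 decimals given.

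Levels were compared between genes only as CPM per kb of peak, averaged over the 8 libraries. By this density the distal Tnfsf10 peak led at 104 CPM per kb, followed by the highest Fasl peak at 103, its neighbour over Gm31869 at 96.8, the Fasl promoter at 87.9, the most accessible Casp8 peak at 87.0, and the called Tnfrsf10b peak at 80.9. The Ripk1 peak was at 69.4, the Fadd promoter at 54.2, the Fas promoter at 28.8, the Casp8 start at 28.0, the Cflar start at 24.2 and the Tnfsf10 peak nearest the start at 9.22 CPM per kb. Among all tested peaks, the distal Tnfsf10 peak lay at percentile 92.0 and the one nearest its start at percentile 8.1. Their order between neighbours was not tested.

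**Figure D4:**
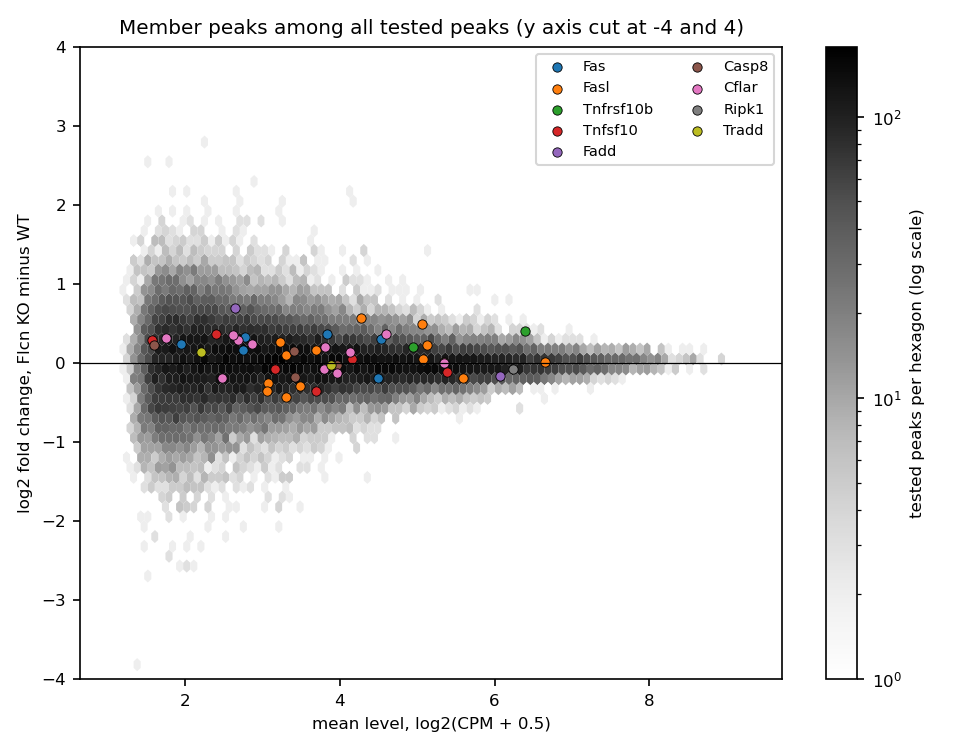
Log2 fold change (Flcn KO minus WT) against mean level, log2(CPM + 0.5), with all 47859 tested peaks as grey hexagons shaded by number and the 48 member peaks as coloured points; 7 peaks fall beyond the axis limits of -4 and 4. The member peaks lie between -0.43 and 0.70, near the middle of the grey cloud.

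When the counts of all peaks of a gene were summed, Tnfrsf10b was again higher and the other 8 genes were not called. Among 13982 genes tested in this way, 1.09% were called higher and 0.601% lower. Summed Tnfrsf10b accessibility was 85.3, 96.0, 100 and 110 CPM in WT and 118, 122, 133 and 137 CPM in Flcn KO libraries, without overlap. Its log2 fold change was 0.38 (SE 0.09, 95% interval 0.19 to 0.56, edgeR adjusted p = 0.0213), and the call was lost without WT 1, WT 2, Flcn KO 3 or Flcn KO 4, with adjusted p up to 0.126. The larger peak is part of this sum, so both values rest on the same reads. For the other 8 genes the log2 fold changes of the sums ran from -0.08 for Fadd to 0.18 for Fas, and the adjusted p-values from 0.534 for Fas to 0.973 for Tradd.

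By a rule of likeness, the genes whose summed log2 accessibility followed that of Tnfrsf10b most closely over the 8 libraries were Rttn (Pearson r = 0.975), Adgra2 (r = 0.973) and Gm5108 (r = 0.972). Of 13981 genes compared, 91 had r above 0.9. The libraries share the genotype difference, which enters each r. Rttn had a log2 change of 0.41 (adjusted p = 0.0183) and Gm5108 of 0.71 (adjusted p = 0.0369), while Adgra2, at 0.33, was not called (adjusted p = 0.264).

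Around the 9 genes, 39 others of the same signalling network were examined, of which 37 had a peak. Of their 157 tested peaks, 3 were called higher, 1 lower and 153 neither, near the 1.35% and 1.02% of all tested peaks called higher and lower. Their log2 fold changes were above 0 at 79 peaks and below 0 at 78, with a median of 0.00. All 4 calls fell among the 83 peaks of the TNF pathway and its complex, and 0 among the 28 peaks of the executioner and amplification genes, the 3 of the necroptosis genes and the 43 of the other death domain genes. Whether these subgroups differ was not tested.

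The lowest adjusted p of these calls was inside Otulin, which encodes the deubiquitinase that removes linear ubiquitin chains. Its peak chr15:27605229-27605729, 8.17 kb inside the nearer gene end, held 10.4, 19.6, 18.4 and 21.2 CPM in WT and 71.4, 58.2, 77.1 and 66.3 CPM in Flcn KO libraries. Flcn KO libraries were far above WT libraries, with a 3.95-fold rise and a log2 change of 1.98 (SE 0.16, adjusted p = 3.68e-10). A peak 5.02 kb from Tnfaip3, which encodes the NF-kB inhibitor A20, was low in WT (1.25, 3.12, 2.04 and 0.984 CPM) and higher in every Flcn KO library (7.43, 6.15, 5.47 and 13.0 CPM). At chr10:18995524-18995891, its log2 fold change was 2.07 (SE 0.41, adjusted p = 0.00224). A peak inside Tnfrsf1b, which encodes TNF receptor 2, held 94.9, 81.2, 74.5 and 84.1 CPM in WT and 117, 111, 102 and 102 CPM in Flcn KO libraries, which did not overlap. It rose by 0.37 on the log2 scale (SE 0.10, adjusted p = 0.0389), a call that was lost without WT 2, 3 or 4 or Flcn KO 1, 2 or 3, with adjusted p up to 0.157. Otulin, Tnfaip3 and Tnfrsf1b had 7, 14 and 11 tested peaks, and at each gene only the peak described was called. The uncalled log2 fold changes ran from -0.02 to 0.45 at Otulin, -0.71 to 0.50 at Tnfaip3 and -0.40 to 0.53 at Tnfrsf1b.

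The 1 called fall lay 36.4 kb from Tab2, which encodes an adaptor of the kinase TAK1, at chr10:7992614-7993014. WT libraries held 13.3, 10.3, 9.43 and 9.59 CPM and Flcn KO libraries 6.26, 3.74, 3.48 and 3.81 CPM, without overlap, a log2 change of -1.27 (SE 0.30, adjusted p = 0.011). Without WT 1 this call was lost (adjusted p = 0.0672). The other tested Tab2 peaks were not called and ran from -0.37 to 0.90. The 0.90 was at a peak 2.84 kb from the gene (SE 0.33, edgeR adjusted p = 0.164). Among the other death domain genes the lowest adjusted p belonged to a peak inside Ptpn13, which encodes a phosphatase that binds Fas (log2 fold change -1.05, SE 0.30, adjusted p = 0.052). Among the necroptosis genes it belonged to a peak near Zbp1, which encodes a nucleic acid sensor that activates RIPK3 (0.43, SE 0.53, adjusted p = 0.817). Neither was called, but the Ptpn13 peak lies close to the threshold and was called in 7 of 19 settings, those without WT 1, WT 3 or Flcn KO 1 among them, with adjusted p from 0.00371 without Flcn KO 1 to 0.371 without WT 2. Also uncalled inside Ptpn13 were chr5:103424888-103425415 (-0.56, edgeR adjusted p = 0.0818) and chr5:103439191-103439576 (-1.0, edgeR adjusted p = 0.159). The rest of the 8 tested Ptpn13 peaks ran from -0.32 to 0.02.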

How the data were processed

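Chromatin accessibility of 4 WT and 4 Flcn KO Treg libraries was read from 1 table of raw counts per peak in mm10 deposited by the authors, with no normalization. The submitters' processing notes name MACS2 2.1.1, bedtools 2.25.0, SAMtools 1.9, Picard 2.9.4, BWA 0.7.16 and Trimmomatic 0.36. Not given in the sources used here are what each tool did, how duplicates were handled, whether reads were shifted for the transposase, and whether libraries were pooled for peak calling, which would favour sites open in the deeper ones. Positions are given 1-based, from deposited starts that are 0-based. Library totals were 2723344 to 5111728, so peaks of a few CPM have wide intervals, and the spread between libraries sets the error.

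Peaks were assigned to the nearest RefSeq (GRCm38.p6) protein-coding gene span within 50 kb, and tied genes each kept the peak. Peaks were filtered with edgeR's filterByExpr (minimum count 10), scaled by TMM and compared between genotypes by its quasi-likelihood test (robust), with genotype as the only term (edgeR 4.0.16, R 4.3.3). Benjamini-Hochberg adjustment ran over every tested peak, or over all genes for sums over the peaks of a gene. CPM uses the TMM-scaled library size, SE was derived from the change and its F statistic, and 95% intervals from the fit's t distribution. P-values weigh the difference between genotypes against the spread between libraries of the same genotype. For each gene the peak nearest its start (or gene end), the most accessible peak, the one with the lowest adjusted p and each called peak were named. Alternatives included DESeq2 1.42.0, limma-voom (limma 3.58.1), other scalings and filters, and leaving out each library. The scripts were tested on simulated data. The members and lists were chosen with earlier results of these data known. Replicate numbers were taken from the titles. Promoter motifs were searched on both strands. Some items are not reported here. TSS and strand came from RefSeq promoter entries where present, which leave out Tnfrsf10b and Tradd.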

Additional observations from a re-analysis of the deposited data

Results flagged for a closer look

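In 3 of the 42 groups of 4 libraries examined over 21 named peaks, 1 library stood far from the other 3, and chance flags about 1 in 20 such groups. At the Fasl peak chr1:161734300-161735210, WT replicate 2 held 31.2 CPM, where the other WT libraries held 25.7 to 26.1 CPM. At the small peak upstream of Fadd, chr7:144583707-144583963, WT replicate 4 held 7.87 CPM against 2.91 to 3.57 CPM in the others. At the Casp8 peak chr1:58797295-58797756, WT replicate 1 held 52.5 CPM against 34.4 to 36.7 CPM.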

How the results depend on the processing

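Among the 9 genes, the Tnfrsf10b peak was called under every alternative that kept all libraries, and lost its call in 6 of the 8 fits that left out 1. Leaving out 1 library gave 0 to 2 member peaks higher and 0 to 1 member genes higher. Over all peaks it gave 420 (without Flcn KO 3) to 863 (without Flcn KO 1) higher and 217 (without WT 2) to 934 (without Flcn KO 1) lower, and over the other pathway peaks 1 to 7 lower. With peaks up to 100 kb, 3 member peaks were higher. A stricter filter left 293 of all peaks lower. Other pathway peaks lower numbered 3 with loess offsets, 2 with no filter, with limma-voom and with no robust estimation, and 5 with a replicate block. The block gave 736 peaks higher and 639 lower over all peaks. Same-numbered deviations correlated at -0.052 to 0.081 and differently numbered ones at -0.152 to 0.175. With 4 libraries per group, these values cannot settle whether replicate numbers pair the samples.

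The named values whose sign turned were never called. The Cflar peak at 58712201 was at -0.004 with DESeq2 size factors and the DESeq2 Wald test, and at -0.008 with library size alone and with counts halved. Summed Tradd was at -0.057 with limma-voom. Leaving out 1 library gave log2 fold changes of -0.082 to 0.069 at the Fasl peak 161766502, -0.084 to 0.170 at the Casp8 peak 58797295, -0.364 to 0.035 at the Casp8 peak 58806672, -0.085 to 0.084 at the Cflar peak 58712201, -0.046 to 0.387 and -0.247 to 0.150 at the Tradd peaks 105259730 and 105264462, and -0.045 to 0.731 at Zbp1. Summed peaks ran from -0.102 to 0.015 for Tnfsf10, -0.164 to 0.005 for Fadd, -0.038 to 0.162 for Casp8, -0.133 to 0.026 for Ripk1 and -0.179 to 0.210 for Tradd. The causes were not tested.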
